A study of Mus musculus with 18 samples.

Results

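The 9 genes Foxa1, Foxa2, Spdef, Gata6, Gata4, Hnf4a, Sox9, Elf3 and Pdx1 encode transcription factors that mark endodermal and ductal identity in the pancreas and the classical subtype of pancreatic tumors. They were chosen by symbol, as identity factors of that subtype, and all 9 were found among the 24493 gene symbols of the deposited expression table. All 9 also had a mean of at least 1 TPM (a transcript level corrected for length, scaled to sum to 1e+06 in each library) over the libraries and so were among the 13422 genes tested. Spdef reached that mean through the WT libraries and clone A of line 6419c5 alone, since its mean stayed under 1 TPM in the other 4 groups. Their levels came from RNA sequencing of tumor cells of the C57BL/6 mouse pancreatic tumor lines 6694c2 and 6419c5, sorted from untreated subcutaneous tumors. Each line was studied as 2 Kdm3a knockout clones and as WT cells; Kdm3a is a histone demethylase that removes a silencing mark. The 6 groups were 6694c2 clone B, 6694c2 clone A, 6694c2 WT, 6419c5 clone B, 6419c5 clone A and 6419c5 WT, with 3 libraries each and 18 in all. A knockout group is 1 clone, so its libraries measure that clone. The labels name no sort marker and no knockout method, and do not say that replicate libraries stem from different mice, so p-values measure the spread between these libraries, which may be technical. The design compares Kdm3a knockout with WT tumor cells in both lines.

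Foxa1 and Foxa2 are forkhead factors that open closed chromatin in the early gut and liver, and Gata4 and Gata6 act beside them in endoderm. Hnf4a is a nuclear receptor of liver, gut and pancreas, Pdx1 is needed for the pancreas to form and later marks beta cells, and Sox9 maintains ductal and progenitor cells. Elf3 and Spdef belong to the Ets family: Elf3 is found in simple epithelia, and Spdef drives the maturation of mucus-secreting goblet cells. In human pancreatic tumors the classical subtype is known for high GATA6, HNF4A and FOXA activity.

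Foxa1 and Spdef fell in both 6419c5 clones, Foxa1 to 9.65% of the WT mean in clone B and 2.07% in clone A, and Spdef to 3.32% in clone B and 30.8% in clone A. Elf3 fell in all 4 clones and Sox9 in both clones of 6419c5, but in 6419c5 clone A the Elf3 call held in 9 of 30 alternative settings and the Sox9 call in 25 of 30. Hnf4a passed the test in 1 clone, 6694c2 clone A, where it fell. Foxa2, Gata6, Gata4 and Pdx1 lay between 70.6% and 144% of the WT mean in every clone. All 4 fell in 6694c2 clone A, Foxa2, Gata6 and Gata4 rose in 6419c5 clone B, Gata6 rose in 6694c2 clone B and Gata4 in 6419c5 clone A. The last 2 rises were near the threshold (limma adjusted p = 0.0481 and 0.0468) and were lost in most alternative settings. The Foxa2 rise was lost in some. Scaled on Krt8 and Krt18, the falls of Foxa2, Gata6 and Gata4 in 6694c2 clone A became rises that did not pass.

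The targeted gene and the other cells in the sort set the frame for these values. Kdm3a had 25.2 to 30.2 TPM in 6694c2 clone B and 26.2 to 29.8 TPM in clone A, against 38.9 to 67.6 TPM in WT. In 6419c5 it had 12.3 to 18.8 TPM in clone B and 21.6 to 24.6 TPM in clone A, against 24.1 to 38.2 TPM in WT, and the change of clone A did not pass the test (log2 change -0.45, limma adjusted p = 0.299). The defining ductal keratin Krt19 stood at 964 to 2981 TPM in all libraries. Of the markers of acinar cells, 13 of 16 were under 1 TPM in every library, as were 10 of 12 islet markers, and Ins1 was listed at 0 in all 18. Of 10 macrophage genes, none was at 0 throughout a group, and they summed to 149.7 to 8880.1 TPM. Those 10 genes summed to 448 to 3684 TPM in 6694c2 clone B and 3601 to 6749 TPM in clone A, against 149.7 to 1841 TPM in 6694c2 WT. They summed to 226 to 472 TPM in 6419c5 clone B and 2506 to 8880.1 TPM in clone A, against 1313 to 8134 TPM in 6419c5 WT. Clone A of both lines also had the highest mean of the fibroblast, endothelial, neutrophil and T and NK cell markers in its line. In bulk libraries, fewer tumor cells and less RNA per cell cannot be told apart. An earlier analysis of these data set apart 3 libraries (6694c2 clone B replicate 3, 6694c2 clone A replicate 1 and 6419c5 WT replicate 3). Without them 2 of the 9 factors were called in 6694c2, 4 in 6419c5 and 5 over both lines, and 6 between the WT cells. With all libraries, 20.4%, 7.38%, 18.4% and 46.3% of all genes were called in these comparisons, and the shares after the omission are not given here. Calls over all genes shift with this omission too, from 643 to 940 in 6419c5 clone A. These counts alone are therefore not a result about the factors. The files hold TPM and no read numbers, so depth is unknown; each library had 12213 to 13590 genes at 1 TPM or more.

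**Figure D1:**
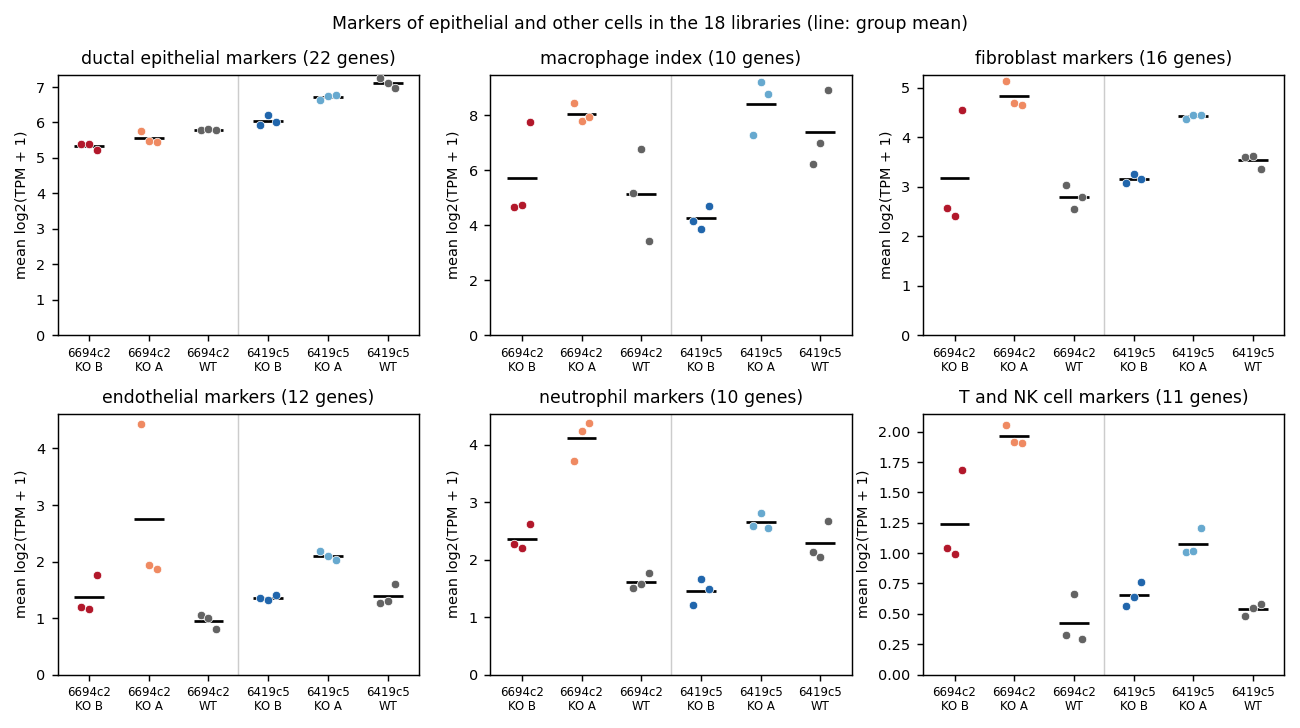
Mean log2(TPM + 1) of the marker genes of each cell type (vertical axis) in the 18 libraries (points), grouped along the horizontal axis by line and clone; the line is the group mean. Clone A of each line has the highest group mean of macrophage, fibroblast, endothelial, neutrophil and T and NK cell markers in that line.

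The promoter windows of the 3 factors with the largest falls over both lines are shown to compare their sequence; windows were found for 6 of the 9 factors. They are printed 5′ to 3′ on the gene's strand, from 250 bases before to 50 bases after the start, from RefSeq on build GRCm38.p6, with the motifs that were found in capitals. The Foxa1 window lies at chr12:57546062-57546361, the Spdef window at chr17:27728902-27729201 and the Elf3 window at chr1:135258423-135258722, all on the minus strand. The whole Foxa1 window lies inside the Foxa1 gene as annotated (57540628 to 57546916), so its start is an internal one and not the outermost.
Foxa1: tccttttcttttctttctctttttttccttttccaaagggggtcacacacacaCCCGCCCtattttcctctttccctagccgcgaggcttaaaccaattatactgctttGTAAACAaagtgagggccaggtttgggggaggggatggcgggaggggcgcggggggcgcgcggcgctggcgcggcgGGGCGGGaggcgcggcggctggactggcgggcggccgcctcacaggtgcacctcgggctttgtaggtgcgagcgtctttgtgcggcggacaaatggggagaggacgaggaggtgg
Spdef: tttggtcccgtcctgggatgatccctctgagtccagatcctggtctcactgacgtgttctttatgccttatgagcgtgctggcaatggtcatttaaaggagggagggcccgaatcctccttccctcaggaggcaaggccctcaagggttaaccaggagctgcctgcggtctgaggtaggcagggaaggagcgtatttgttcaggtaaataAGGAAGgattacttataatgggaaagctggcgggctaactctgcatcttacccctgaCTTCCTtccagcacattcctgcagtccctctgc
Elf3: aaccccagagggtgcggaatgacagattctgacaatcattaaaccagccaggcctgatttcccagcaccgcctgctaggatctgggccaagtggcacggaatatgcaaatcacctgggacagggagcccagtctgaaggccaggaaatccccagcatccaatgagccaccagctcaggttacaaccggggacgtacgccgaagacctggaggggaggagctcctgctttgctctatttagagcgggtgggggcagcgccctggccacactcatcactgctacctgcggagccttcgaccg

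Both strands were searched for 6 motifs. The Foxa1 window holds 1 forkhead match (letters TGTTTAC), 141 bases before its internal start on the opposite strand and thus within the annotated gene. A forkhead match occurs in 3.65% of all 32851 windows of this length. The Foxa1 window also holds 2 matches of the Klf and Sp letters GGGCGGG, which occur in 25.6% of windows. It has 26 CG dinucleotides where the median window holds 7. The Spdef window holds 2 matches of the Ets letters AGGAAG, on either side of the start, and these letters occur in 35.4% of windows. The Elf3 window holds none of the 6 motifs and 12 CG dinucleotides. The letters AGATAA, bound by GATA factors, occur in 11.2% of all windows. The Sox letters ACAATG occur in 12.6% and the TATA box letters TATAAA in 13.6%, and none of these motifs is in the windows printed. The 3 windows thus share no motif of those searched. A match in letters is not a bound site.

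Foxa1 (build GRCm38, chromosome 12, 57540628 to 57546916, minus strand) had the largest difference in knockout effect between the lines. In 6419c5 it had 0.464, 0.747 and 0.432 TPM in clone B and 0.137, 0.162 and 0.0539 TPM in clone A, against 6.41, 5.43 and 5.18 TPM in WT. All 6 knockout libraries lay below all 3 WT libraries, and the clones did not overlap each other. The ratio of mean TPM was 10.4-fold lower in clone B and 48.3-fold lower in clone A. On the log2(TPM + 1) scale, which understates the change of genes this low, the mean of both clones fell by 2.34 (SE 0.21, limma adjusted p = 4.61e-06). In 6694c2 Foxa1 had 1.33, 1.36 and 3.38 TPM in clone B and 2.92, 2.39 and 2.43 TPM in clone A, against 1.55, 2.11 and 3.56 TPM in WT. These groups overlapped throughout, and the change of -0.042 did not pass (95% interval -0.49 to 0.41, limma adjusted p = 0.909). A direct test of the lines passed, with a knockout effect 2.30 higher in 6694c2 than in 6419c5 (SE 0.30, limma adjusted p = 2.76e-04). Of the 10 macrophage genes, 9 were lower than WT in 6419c5 clone B and none passed in clone A (median change 1.06). With the macrophage index as a covariate, the 6419c5 change of Foxa1 was -2.31 (limma adjusted p = 1.32e-05). The part of other cells in the Foxa1 change was not tested.

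Foxa2 (chromosome 2, 148042877 to 148046969, minus strand), which shares the DNA-binding domain of Foxa1 and much of its role, had 47.9 TPM in its lowest library and 67.4 TPM in its highest. Its highest group mean was 1.26 times its lowest, the smallest such ratio of the 9 factors. In 6694c2 it had 63.9, 64.2 and 60.4 TPM in clone B and 52.3, 51.9 and 50.3 TPM in clone A, against 67.4, 65.7 and 58.1 TPM in WT. Clone A lay below the other groups and clone B overlapped WT. In 6419c5 Foxa2 had 64.0, 62.3 and 62.7 TPM in clone B and 64.4, 47.9 and 50.5 TPM in clone A, against 52.4, 51.3 and 48.2 TPM in WT. Neither line's knockout mean passed (-0.16 in 6694c2 and 0.20 in 6419c5, limma adjusted p = 0.177 for each). Where Foxa1 was 10.4-fold and 48.3-fold lower than WT, Foxa2 was at 124% and 107% of WT.

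The GATA factors did not move together with Foxa1. Gata6 had 53.6, 52.0 and 58.1 TPM in 6694c2 clone B and 40.6, 34.0 and 32.2 TPM in clone A, against 45.1, 41.9 and 46.3 TPM in WT. Clone B lay above WT and clone A below it, without overlap, so that the mean of both clones differed from WT by -0.013 (limma adjusted p = 0.928). In 6419c5 Gata6 had 62.9, 60.6 and 59.8 TPM in clone B and 44.1, 39.7 and 43.0 TPM in clone A, against 46.5, 42.4 and 38.6 TPM in WT. Clone B stood above WT (0.52, SE 0.09, limma adjusted p = 0.00143) and clone A overlapped it. Clone B thus had more Gata6 than clone A in each line, by 0.61 in 6694c2 (limma adjusted p = 0.00167) and 0.52 in 6419c5 (limma adjusted p = 0.00107). The antisense transcript 1010001N08Rik overlaps Gata6 exons and was higher in the clones over both lines, and without known strand use its reads and those of Gata6 cannot be told apart.

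Gata4 (chromosome 14, 63198922 to 63271692, minus strand) had 31.6, 32.9 and 36.6 TPM in 6694c2 clone B and 27.2, 22.8 and 24.2 TPM in clone A, against 29.1, 35.4 and 29.7 TPM in WT. Clone B overlapped WT and clone A lay below it. In 6419c5 Gata4 had 43.2, 42.6 and 41.7 TPM in clone B and 40.5, 40.9 and 43.3 TPM in clone A, against 31.4, 36.1 and 27.3 TPM in WT. All 6 knockout libraries of 6419c5 lay above its WT, and the mean of both clones rose by 0.41 (SE 0.09, limma adjusted p = 0.0119). That call rested on WT replicate 3, the lowest of the WT libraries: its omission gave 0.31 (limma adjusted p = 0.0791). The knockout effect was 0.52 lower in 6694c2 than in 6419c5 (difference -0.52, SE 0.13, limma adjusted p = 0.0218). This difference was also lost without 6419c5 WT replicate 3 (-0.43, limma adjusted p = 0.0687) or 6694c2 WT replicate 2 (-0.44, limma adjusted p = 0.0606).

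Hnf4a (chromosome 2, 163506808 to 163572910, plus strand) was the most abundant member over all libraries, at a mean of 119.8 TPM. In 6694c2 it had 104, 103 and 79.8 TPM in clone B and 71.3, 69.0 and 64.7 TPM in clone A, against 109, 104 and 103 TPM in WT. Clone A lay below every other library of the line and clone B overlapped WT. The mean of both clones fell by 0.39 (SE 0.09, limma adjusted p = 0.00662), made up of -0.62 in clone A (limma adjusted p = 6.12e-04) and -0.15 in clone B (limma adjusted p = 0.343). In 6419c5 Hnf4a had 162, 167 and 155 TPM in clone B and 143, 134 and 136 TPM in clone A, against 163, 158 and 129.98 TPM in WT. These groups overlapped and the change was -0.0038 (95% interval -0.19 to 0.18, limma adjusted p = 0.994). Krt8, a keratin of simple epithelia that stands for the tumor cells, had a median of 2986 TPM in 6694c2 clone B and 2139 TPM in clone A, against 3125 TPM in WT. With the libraries scaled on Krt8 and Krt18, the 6694c2 change of Hnf4a was -0.14 (limma adjusted p = 0.148) and that of clone A was -0.24 (limma adjusted p = 0.0412). Krt8 was among the genes nearest to Hnf4a in profile, so this scaling removes change that both share. In 6694c2 clone A 8 of 10 macrophage markers, 14 of 15 fibroblast markers, 7 of 9 endothelial, 8 of 9 neutrophil and 5 of 6 T and NK cell markers were higher than WT. With the macrophage index as a covariate, 3 of the 9 factors and no longer 6 passed in that clone. Calls over all 13422 genes fell there too, from 2913 to 1811, so this drop is not particular to the factors.

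Pdx1 (chromosome 5, 147269959 to 147275848, plus strand) differed between the clones of a line. It had 65.8, 65.8 and 68.0 TPM in 6694c2 clone B and 43.9, 37.6 and 36.6 TPM in clone A, against 63.5, 57.5 and 46.1 TPM in WT. Clone B lay above WT and clone A below it, without overlap. In 6419c5 Pdx1 had 83.9, 98.2 and 88.8 TPM in clone B and 57.2, 63.0 and 68.2 TPM in clone A, against 75.1, 83.4 and 60.3 TPM in WT. Clone B lay just above WT (83.9 TPM at its lowest against 83.4 TPM at the highest of WT) and clone A overlapped it. The higher level of clone B passed in neither line (0.26 in 6694c2, limma adjusted p = 0.187, and 0.31 in 6419c5, limma adjusted p = 0.109). The fall in 6694c2 clone A passed (-0.48, limma adjusted p = 0.0158). Neither knockout mean passed (-0.11 in 6694c2, limma adjusted p = 0.521; 0.055 in 6419c5, limma adjusted p = 0.880). Clone B had more Pdx1 than clone A by 0.75 in 6694c2 (SE 0.13, limma adjusted p = 0.00349) and by 0.52 in 6419c5 (SE 0.13, limma adjusted p = 0.00853).

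Sox9 (chromosome 11, 112782224 to 112787760, plus strand), the ductal factor, had 81.6, 82.8 and 59.4 TPM in 6694c2 clone B and 69.5, 89.4 and 82.5 TPM in clone A, against 94.3, 98.2 and 100.4 TPM in WT. All 6 knockout libraries lay below WT, but the change of -0.34 did not pass (95% interval -0.64 to -0.045, limma adjusted p = 0.0937). In 6419c5 it had 26.9, 34.7 and 30.7 TPM in clone B and 31.3, 35.6 and 37.8 TPM in clone A, against 63.7, 65.0 and 44.2 TPM in WT. The knockout libraries again lay below WT without overlap, and the mean of both clones fell by 0.78 (SE 0.14, limma adjusted p = 0.0022). The fall in clone A of 6419c5 (-0.69, limma adjusted p = 0.0192) depended on single libraries: it did not pass without WT replicate 1 (-0.61, limma adjusted p = 0.096) or 2 (-0.60, limma adjusted p = 0.0922), nor without clone A replicate 1 (-0.62, limma adjusted p = 0.0709) or 2 (-0.71, limma adjusted p = 0.0545). The effect of the knockout on Sox9 was not shown to differ between the lines (0.44, limma adjusted p = 0.183), but without the 3 libraries set apart the difference was 0.74 (limma adjusted p = 0.00697).

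Elf3 (chromosome 1, 135253575 to 135258568, minus strand) fell in both lines, each taken over its clones. In 6694c2 it had 33.8, 32.6 and 32.5 TPM in clone B and 31.1, 25.6 and 27.1 TPM in clone A, against 47.9, 66.3 and 53.8 TPM in WT. No knockout library reached the lowest WT library, and the mean of both clones fell by 0.85 (SE 0.14, limma adjusted p = 6.07e-04). In 6419c5 Elf3 had 58.7, 75.5 and 57.5 TPM in clone B and 101, 141 and 148 TPM in clone A, against 203, 221 and 163 TPM in WT. Again no library of the clones reached WT, clone B lay below clone A, and the mean of both clones fell by 1.09 (SE 0.14, limma adjusted p = 1.43e-04). Mean Elf3 was at 58.9% of WT in clone B and 49.8% in clone A of 6694c2, and at 32.7% in clone B and 66.6% in clone A of 6419c5. The call in 6419c5 clone A was at the threshold (-0.59, limma adjusted p = 0.0497) and held in 9 of 30 alternative settings, in which its adjusted p ran between 0.0280 and 0.180. The lines did not pass a test of their difference in the Elf3 effect (0.24, 95% interval -0.18 to 0.66, limma adjusted p = 0.492). Whether the counting used strand is not given, and another transcript, Gm26642, overlaps Elf3 exons, so reads of the pair cannot be told apart.

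Spdef (chromosome 17, 27714352 to 27728955, minus strand), the other Ets factor, had 0.214, 0.0904 and 0.353 TPM in 6694c2 clone B and 0.146, 0.216 and 0.118 TPM in clone A, against 0.346, 1.25 and 0.379 TPM in WT. Clone B overlapped WT, clone A lay below it, all at a level near 0, and the change of -0.44 did not pass (limma adjusted p = 0.074). In 6419c5 Spdef had 0.136, 0.522 and 0.442 TPM in clone B and 3.13, 3.61 and 3.46 TPM in clone A, against 10.1, 11.9 and 11.2 TPM in WT. The 3 groups formed separate levels, 30.1-fold lower than WT in clone B and 3.25-fold lower in clone A. The mean of both clones fell by 2.30 (SE 0.17, limma adjusted p = 6.21e-07), and clone B was 1.70 below clone A (SE 0.19, limma adjusted p = 3.35e-05). The knockout effect was 1.86 higher in 6694c2 than in 6419c5 (SE 0.24, limma adjusted p = 2.42e-04). Spdef was tested only because 6419c5 WT and clone A raised its mean over the filter, so these calls are partly set by the filter. In 6694c2 WT Spdef already stood at 0.658 ± 0.513 TPM, against 11.0 ± 0.895 TPM in 6419c5 WT (SD, n = 3 each).

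**Figure D2:**
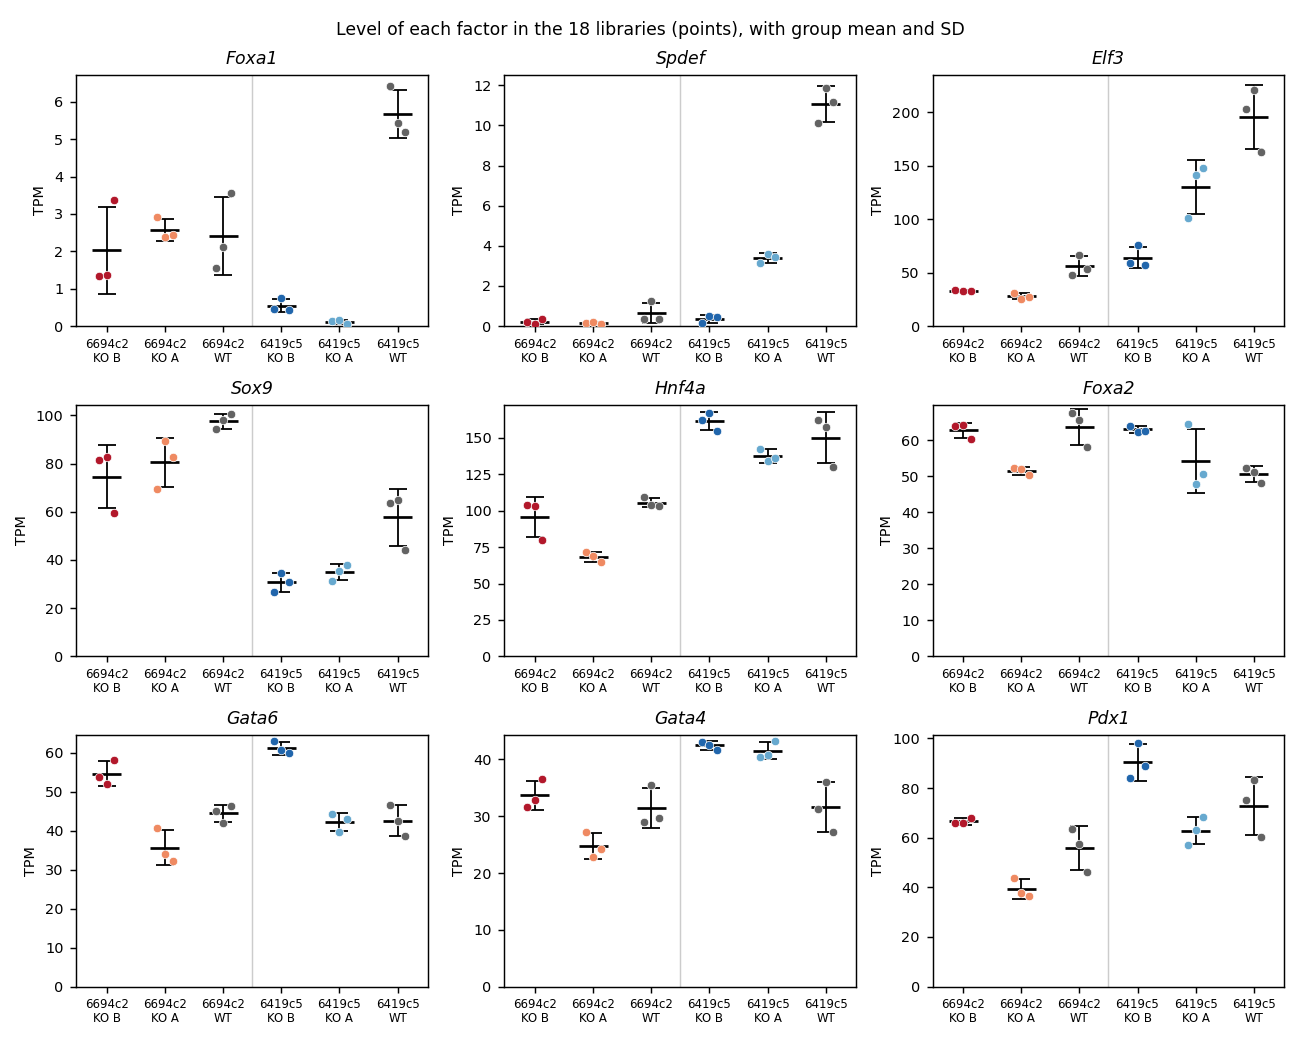
TPM of each factor (vertical axis, linear and starting at 0) in the 18 libraries (points) by group (horizontal axis); the wide line is the group mean and the whiskers are 1 SD over 3 libraries. Foxa1 and Spdef of 6419c5 are at 5.18 TPM or more in WT and at 3.61 TPM or less in the clones, while Foxa2 stays between 47.9 and 67.4 TPM.

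Counted over the set, 5 of the 9 factors fell over both lines together (Foxa1, Spdef, Elf3, Sox9 and Hnf4a) and 4 did not pass, where limma called 18.4% of the 13422 genes. The pooled changes were -1.19 for Foxa1, -1.37 for Spdef, -0.97 for Elf3, -0.56 for Sox9 and -0.19 for Hnf4a. The last of these (limma adjusted p = 0.0412) held in 15 of 29 alternative settings. In 6694c2 2 factors fell (Elf3 and Hnf4a) and none rose, where 20.4% of all genes were called. In 6419c5 4 fell (Foxa1, Spdef, Elf3 and Sox9), 1 rose (Gata4) and 4 did not pass, where 7.38% of all genes were called. The median change of the 9 factors was -0.16 in 6694c2, against 0.15 over all genes tested, and -0.0038 in 6419c5, against 0.013 over all genes tested. For 3 factors (Foxa1, Spdef and Gata4) the knockout effect differed between the lines, where 8.71% of all genes differed. Since Spdef passed the filter through 6419c5 WT and clone A alone, the counts that hold it, here and below, are partly set by the filter.

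Taken clone by clone, 1 factor in 6694c2 clone B rose (Gata6) and 1 fell (Elf3), where 14.5% of genes were called, and in clone A 6 fell (Foxa2, Gata6, Gata4, Hnf4a, Elf3 and Pdx1), where 21.7% were called. In 6419c5 clone B 3 rose (Foxa2, Gata6 and Gata4) and 4 fell (Foxa1, Spdef, Sox9 and Elf3), where 18.9% were called. In clone A of that line 1 rose (Gata4) and 4 fell (Foxa1, Spdef, Sox9 and Elf3), where 4.79% were called. Both clones of a line were compared with the same WT libraries. Several of these calls depended on single libraries: in 6694c2 clone A, Hnf4a and Elf3 were the 2 calls left without clone A replicate 2 or without clone A replicate 3, and 3 calls were left without WT replicate 1. The Gata6 call in 6694c2 clone B (0.29, limma adjusted p = 0.0481) held in 8 of 30 settings, the Gata4 call in 6419c5 clone A (0.39, limma adjusted p = 0.0468) in 7 of 30 and the Foxa2 call in 6419c5 clone B (0.31, limma adjusted p = 0.0313) in 20 of 30. Scaled on Krt8 and Krt18, the changes of Foxa2 (0.075), Gata6 (0.056) and Gata4 (0.038) in 6694c2 clone A turned positive and did not pass.

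The clones of a line differed from each other in 4 factors in each line. Clone B of 6694c2 was higher than clone A in Gata6, Gata4, Hnf4a and Pdx1, where 9.53% of genes were called, by 0.43 to 0.75. Clone B of 6419c5 was higher than clone A in Gata6 and Pdx1 and lower in Spdef and Elf3, where 26.3% were called. Gata6 and Pdx1 were thus higher in clone B than in clone A of both lines. In 6694c2 other cell types moved with these differences: 7 of 9 neutrophil, 8 of 15 fibroblast, 5 of 9 endothelial and 2 of 6 T and NK cell markers were lower in clone B than in clone A, and none of 10 macrophage genes passed (median change -2.50). Scaled on Krt8 and Krt18, 1 of the 4 factors (Pdx1) still passed there, and 2 (Gata6 and Pdx1) passed with the macrophage index as a covariate or with only the 9 libraries of the line. Calls over all genes between the 6694c2 clones ran from 343 to 1872 over the alternatives, against 1279 in the main fit. In 6419c5 10 of 10 macrophage, 9 of 15 fibroblast, 5 of 9 neutrophil, 2 of 9 endothelial and 1 of 6 T and NK cell markers were lower in clone B. With the macrophage index as a covariate the 6419c5 differences of Gata6 (0.44, limma adjusted p = 0.0668) and Pdx1 (0.59, limma adjusted p = 0.0793) did not pass. Without it each was 0.52. The index itself differed between these clones, at a mean of 4.24 in clone B and 8.41 in clone A. That fit therefore separates clone and index poorly, and calls over all genes fell from 3534 to 1359.

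**Figure D3:**
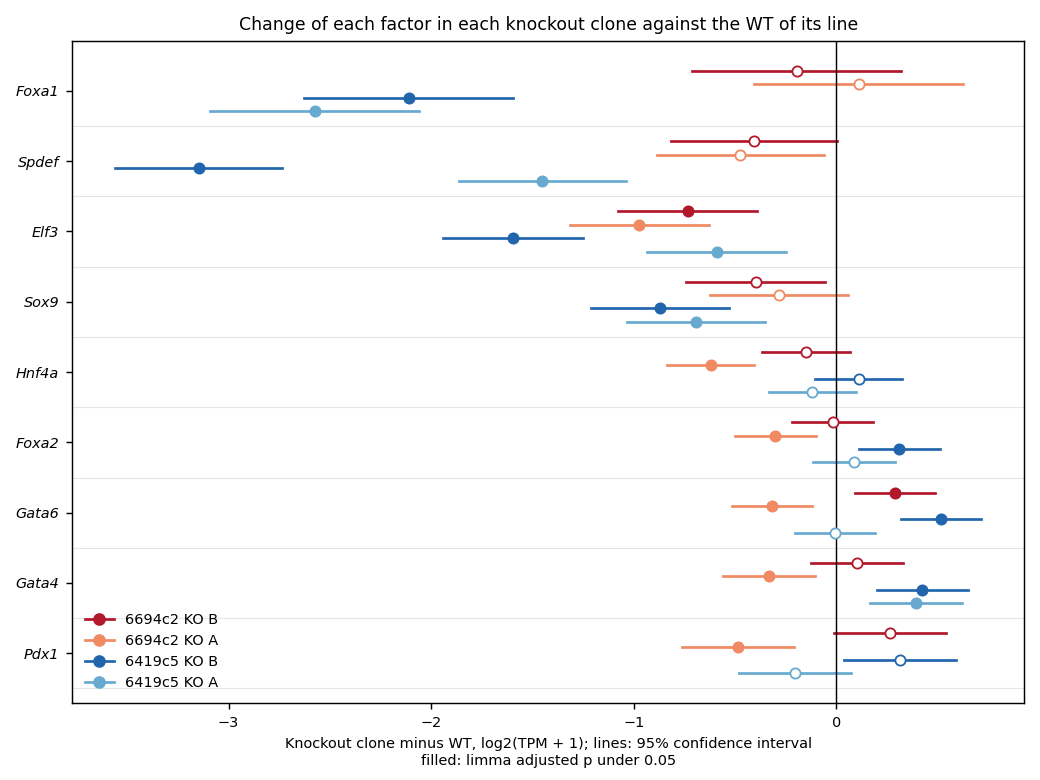
Change of each factor (rows) in each knockout clone against the WT of its line, in log2(TPM + 1) (horizontal axis); lines are 95% confidence intervals and filled points have a limma adjusted p under 0.05. The Foxa1 and Spdef changes of the 6419c5 clones reach -1.45 to -3.15, and the Elf3 changes of the 4 clones are all below 0.

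The WT cells of the lines differed in 7 of the 9 factors, where 46.3% of all genes differed. WT 6694c2 had more Sox9 (0.77, SE 0.16, limma adjusted p = 0.00111) and more Foxa2 (0.33, limma adjusted p = 0.0108) than WT 6419c5. It had less Spdef (-2.90, limma adjusted p = 3.03e-08), Elf3 (-1.79, limma adjusted p = 5.43e-07) and Foxa1 (-1.01, limma adjusted p = 0.00321). Spdef passed the filter on the mean through 6419c5 WT and clone A alone, so its call here is partly set by the filter. It also had less Hnf4a (-0.50, limma adjusted p = 9.81e-04) and Pdx1 (-0.38, limma adjusted p = 0.0255), and the Pdx1 call was lost in 9 of 29 alternative settings. Other cells differed between the WT groups too, with 5 of 10 macrophage (median -2.29), 4 of 15 fibroblast, 4 of 9 neutrophil and 1 of 9 endothelial markers lower in 6694c2. With the macrophage index as a covariate 5 of the 9 factors passed, without Foxa2 (0.27, limma adjusted p = 0.0617) and Pdx1 (-0.34, limma adjusted p = 0.0858). Calls over all genes between the WT cells ran from 3765 to 6392 over the alternatives, against 6213 in the main fit. Gata6 and Gata4 were close in the WT cells, at 44.4 ± 2.24 and 31.4 ± 3.51 TPM in 6694c2 and 42.5 ± 3.96 and 31.6 ± 4.38 TPM in 6419c5 (SD, n = 3 each). The order of the group means placed 6419c5 WT first for Foxa1, Spdef and Elf3 and 6694c2 WT first for Sox9 and, within overlapping libraries, for Foxa2. For Gata6, Gata4, Hnf4a and Pdx1 it placed 6419c5 clone B first. Elf3 of 6419c5 clone B (63.9 ± 10.1 TPM) overlapped Elf3 of 6694c2 WT (56.0 ± 9.39 TPM), and Spdef of 6419c5 clone B overlapped Spdef of 6694c2 WT.

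Other endodermal and epithelial transcription factors were set beside the 9 as a list of 63 genes, of which 38 were tested. Over both lines 12 of them were lower in the knockout clones and 2 higher, where 18.4% of all genes were called, with a median change of -0.13 against 0.08 over all genes tested. Foxa3, the third member of the Foxa family, fell by 1.01 in 6694c2 (4.43 ± 1.35 TPM in clone B and 3.57 ± 0.266 TPM in clone A, against 8.997 ± 1.34 TPM in WT, SD, n = 3 each; limma adjusted p = 6.55e-04). In 6419c5 Foxa3 fell by 0.69 (6.76 ± 0.513 TPM in clone B and 10.7 ± 2.17 TPM in clone A, against 14.4 ± 2.41 TPM in WT, SD, n = 3 each; limma adjusted p = 0.019), and clone A by itself did not pass (-0.40, limma adjusted p = 0.328). Klf5, a zinc finger factor of epithelial progenitors, fell by 0.70 in 6694c2 (limma adjusted p = 5.75e-06) and 0.60 in 6419c5 (limma adjusted p = 6.65e-05). Hhex, a homeobox factor of foregut endoderm, rose by 0.82 in 6694c2 (limma adjusted p = 1.41e-05) and by 0.38 in 6419c5 (limma adjusted p = 0.0171). Within the Foxa family, then, Foxa3 fell in both lines, Foxa1 fell in 6419c5 and Foxa2 passed in neither.

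In 6694c2 7 of the 38 fell and 4 rose, where 20.4% of all genes were called. Barx2, a homeobox factor, fell by 0.92 (limma adjusted p = 3.62e-04). Creb3l1, a factor of secretory cells, rose by 1.05 (limma adjusted p = 0.00156) and Nr0b2, a corepressor of nuclear receptors, rose by 0.71 (limma adjusted p = 0.00916). Nr0b2 had 2.40 ± 0.367 TPM in 6694c2 clone B, while clone A (0.197 ± 0.0749 TPM) was close to WT (0.232 ± 0.106 TPM, SD, n = 3 each). In 6419c5 6 of the 38 fell and 1, Hhex, rose, where 7.38% were called. Creb3l4, a relative of Creb3l1, fell by 1.13 (limma adjusted p = 2.88e-04), the homeobox factor Irx3 by 1.12 (limma adjusted p = 8.77e-04) and the Onecut factor Onecut3 by 0.94 (limma adjusted p = 2.54e-04). Etv4, an Ets factor downstream of growth factor signals, fell by 0.58 in 6419c5 (limma adjusted p = 0.00727).

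**Figure D4:**
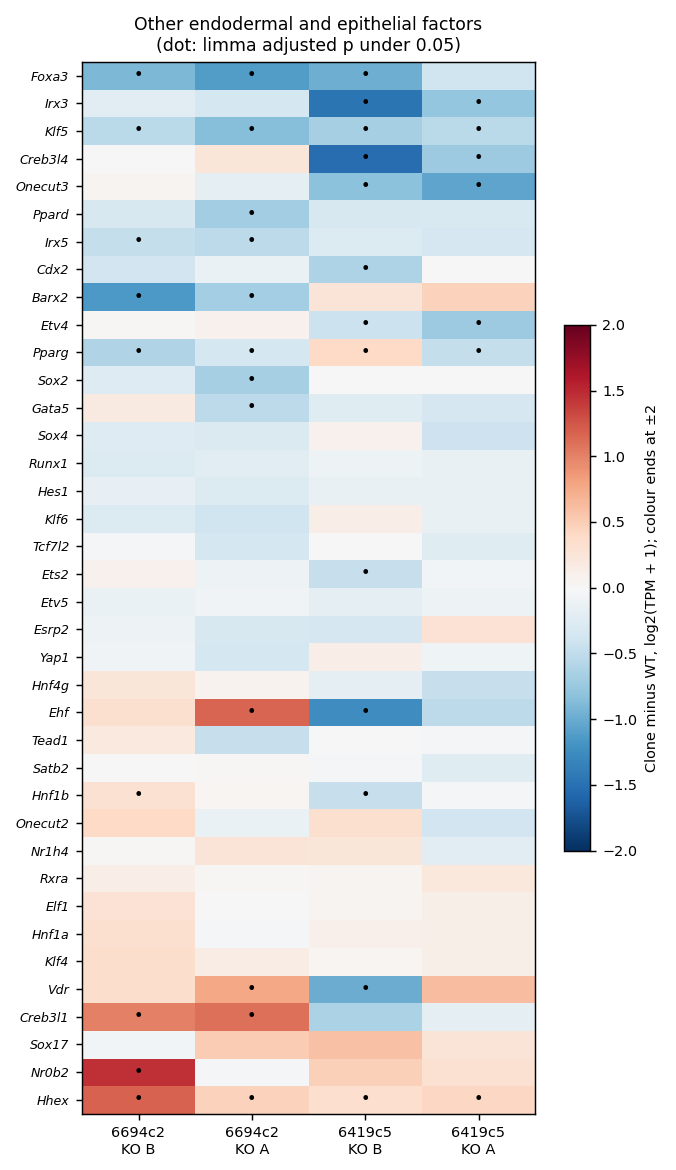
Colour shows the change of each of the 38 other endodermal and epithelial factors tested (rows) in each clone (columns) against the WT of its line, in log2(TPM + 1), with colours ending at ±2; a dot marks a limma adjusted p under 0.05. Foxa3 and Klf5 are blue in all 4 clones and Hhex is red in all 4.

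Secretory and other genes of the classical subtype (30 genes, 25 tested) were lower more often than higher in 6419c5, with 9 lower and 1 higher, where 7.38% of all genes were called, and a median change of -0.42 against 0.01 over all genes tested. Tff2, a trefoil peptide of mucous cells, fell to 74.9 ± 6.34 TPM in clone B and 8.53 ± 2.48 TPM in clone A, against 226 ± 64.6 TPM in WT (SD, n = 3 each; log2 change -3.06, limma adjusted p = 4.73e-07). Agr2, a protein disulfide isomerase that mucin-producing cells need, fell to 23.4 ± 12.7 TPM in clone B and 34.0 ± 14.3 TPM in clone A, against 144 ± 27.6 TPM in WT (SD, n = 3 each; log2 change -2.40, limma adjusted p = 5.63e-04). Gpx2, a glutathione peroxidase of gut epithelium, fell by 2.20 in 6694c2 (limma adjusted p = 6.36e-06) and by 2.62 in 6419c5 (limma adjusted p = 2.84e-06). In 6419c5 Gpx2 had 1.76 ± 0.223 TPM in clone B and 44.9 ± 13.8 TPM in clone A, against 67.5 ± 6.16 TPM in WT (SD, n = 3 each), and clone A by itself did not pass (-0.62, limma adjusted p = 0.237). In 6694c2 6 of the 25 fell and 3 rose, where 20.4% of all genes were called, with a median of 0.04 against 0.15 over all genes tested. Muc5ac, a gel-forming mucin of stomach and airways, was among those that rose there (1.85, limma adjusted p = 9.60e-04), with 30.4 ± 4.44 TPM in clone B and 8.58 ± 6.30 TPM in clone A, against 3.54 ± 0.774 TPM in WT (SD, n = 3 each). Clone A of 6694c2 by itself did not pass for Muc5ac (0.90, limma adjusted p = 0.0965). Muc1, a membrane mucin, fell in 6694c2 (-0.89, limma adjusted p = 0.00376) and in 6419c5 (-0.76, limma adjusted p = 0.0196), where clone A by itself did not pass (-0.21, limma adjusted p = 0.714).

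Genes of liver and gut that Hnf4a is known to bind (22 genes, 13 tested) did not follow a single direction. In 6694c2, where Hnf4a fell, 4 of the 13 were lower and 1 higher, where 20.4% of all genes were called, with a median of -0.08 against 0.15 over all genes tested. In 6419c5, where Hnf4a did not pass, 1 was lower and 1 higher, where 7.38% were called, with a median of 0.22 against 0.01. Maob, monoamine oxidase B, fell in 6694c2 (-1.62, limma adjusted p = 8.77e-04) and in 6419c5 (-2.46, limma adjusted p = 4.60e-05). Ttr, the thyroid hormone carrier transthyretin, rose in 6694c2 (0.67, limma adjusted p = 0.0327), where clone A by itself did not pass (0.32, limma adjusted p = 0.381). Between the WT cells all 13 were lower in 6694c2 than in 6419c5, where 46.3% of all genes were called. Their median was -2.94 against -0.22 over all genes tested, and Hnf4a itself was lower by 0.50. Of the 22 genes, 11 were under 1 TPM in every 6694c2 WT library and 8 in every 6419c5 WT library. A gene high in 6419c5 alone can pass the filter on the mean, so this count is partly set by the filter.

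Markers of ductal epithelium (22 genes, 20 tested) fell in part. In 6694c2 6 were lower and 1 higher, where 20.4% of all genes were called, and in 6419c5 7 were lower and none higher, where 7.38% were called. Epcam, an adhesion molecule of epithelia, fell to 0.896 ± 0.196 TPM in clone B and 4.64 ± 2.57 TPM in clone A of 6694c2, against 25.04 ± 3.38 TPM in WT (SD, n = 3 each; log2 change -3.03, limma adjusted p = 9.97e-07). In 6419c5 Epcam had 26.8 ± 6.96 TPM in clone B and 146 ± 55.9 TPM in clone A, against 249 ± 20.9 TPM in WT (SD, n = 3 each; log2 change -2.02, limma adjusted p = 1.55e-04), and clone A by itself did not pass (-0.84, limma adjusted p = 0.153). The claudin Cldn7, a tight junction protein, fell by 3.84 in 6419c5 (limma adjusted p = 1.77e-07) and by 1.01 in 6694c2 (limma adjusted p = 0.0091), where clone A by itself did not pass (-0.79, limma adjusted p = 0.0577). Cdh1, which encodes E-cadherin, did not pass in 6694c2 (0.06, limma adjusted p = 0.686) or in 6419c5 (0.05, limma adjusted p = 0.853). Basal-like and mesenchymal factors (20 genes, 14 tested) had 2 higher (Twist2, 1.25, and Prrx1, 0.98) and 1 lower (Twist1) in 6694c2, a share of calls near the 20.4% of all genes. By clone, 3 were higher and 1 lower in clone A, where 21.7% of all genes were called. In clone B 1 was higher and 1 lower, where 14.5% were called. Clone A of 6694c2 also had 14 of 15 fibroblast markers higher than WT, and the part of other cells in these rises was not tested. Twist1 had 0.553 ± 0.622 TPM in clone B and 2.86 ± 1.24 TPM in clone A, against 5.69 ± 1.01 TPM in 6694c2 WT (SD, n = 3 each; limma adjusted p = 2.94e-04). In 6419c5 1 of them, Fosl1, was lower over both clones (-0.82, limma adjusted p = 0.01) and none was higher, where 7.38% of all genes were called. The clones of 6419c5 differed here: against WT 2 of the 14 were higher and 3 lower in clone B, and 2 were lower and none higher in clone A. Twist1 was higher in clone B (0.79, limma adjusted p = 0.0447) and lower in clone A (-1.65, limma adjusted p = 0.00106), and Zeb1, a repressor of epithelial genes, was higher in clone B (0.83, limma adjusted p = 0.00852). Twist1 and Zeb1 are given here after their values were seen.

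Genes whose profile over the 18 libraries lay closest to a member were found by the root-mean-square difference of the centred log2(TPM + 1) values. For Foxa1 they were Dio3 (0.43), Adora2a (0.47) and Aldh1a3 (0.55), against an SD of 0.90 for Foxa1 itself. For Spdef they were Rnf186, Homer2 and Klhdc7a, with differences of 0.38, 0.38 and 0.41. For Elf3 the nearest was Camsap3 (0.25), and for Sox9 it was Hk2 (0.20). For Hnf4a the nearest were Fermt1, Krt8 and Nadk2, with differences of 0.11, 0.11 and 0.12, and for Gata6 Ctnna1 (0.11). For Foxa2 the nearest was Trim28 (0.076), for Gata4 Aars2 (0.13) and for Pdx1 Cdc25b (0.15).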

How the data were processed

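The authors deposited TPM for 24493 gene symbols, quantified with Salmon on mouse build mm10, per the submitters' processing notes. The Salmon version, annotation and transcript summing are not given in the sources used here. The name of the deposited table mentions a batch that no label describes, so whether values were adjusted is unknown. Clones carry letters in the table and numbers in the titles; clone A was equated with KO1 and clone B with KO2 by name order, and no result but the names rests on it. TPM hold no depth, so no count model and no counting interval was used; printed intervals are 95% confidence intervals of the limma fit.

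The 13422 genes averaging 1 TPM or more over all libraries were tested on the log2(TPM + 1) scale. In R 4.3.3, limma 3.58.1 (eBayes with trend) estimated the 6 group means, leaving 12 residual degrees of freedom, with Benjamini-Hochberg adjustment over all tested genes, called under 0.05, and was tested on simulated data. Alternatives covered pseudocount, filter, scaling, macrophage index, libraries left out and a replicate block. Same-numbered libraries deviated together (correlation over 0.1) in 5 of 18 pairs, with correlations from -0.38 to 0.48. With 3 libraries per group this cannot show whether the numbers pair samples, and the main fit used no pairing. The 9 factors and all lists were chosen with earlier results of these data known. Named genes are the 9 factors, Kdm3a, the 3 genes closest to each factor, and up to 6 called genes per list with the largest change; Krt8, Krt19, Cdh1 and Ins1 are named as markers. Not every such gene is printed, and 1 gene of the lists is not reported here.

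Of the marker lists, the mean change of both clones gave, in 6694c2, 7 of 15 fibroblast, 4 of 9 endothelial, 8 of 9 neutrophil, 4 of 6 T and NK cell and none of 10 macrophage genes higher; of 10 peritoneal macrophage genes, 2 were higher and 2 lower. In 6419c5 1 neutrophil gene was lower, 1 peritoneal macrophage gene was higher and the other lists had no call. Of the acinar and islet markers 1 gene each was tested: Cela1 did not pass in either line, and Ghrl was higher in 6694c2 (1.62). The cause of these levels was not tested.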

Additional observations from a re-analysis of the deposited data

Results flagged for a closer look

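The effect of the knockout differed between the lines, by a test of the difference itself, for 3 of the 9 factors. For Foxa1 the effect in 6694c2 was 2.30 above that in 6419c5 on the log2(TPM + 1) scale (limma adjusted p = 2.76e-04), and it passed in all 28 alternative settings that gave a value, from 1.79 to 3.91. For Spdef the difference was 1.86 (limma adjusted p = 2.42e-04). It passed in 27 of 28 settings, and with a pseudocount of 0.1 the limma adjusted p was 0.0505. Spdef passed the filter through 6419c5 WT and clone A alone, so this call is partly set by the filter. For Gata4 the difference ran the other way, at -0.52 (limma adjusted p = 0.0218), and passed in 25 of 29 settings. Foxa1 and Spdef had less WT expression to lose in 6694c2, at 2.41 ± 1.04 and 0.658 ± 0.513 TPM, against 5.68 ± 0.648 and 11.0 ± 0.895 TPM in 6419c5 (SD, n = 3 each). The part of this starting level in the difference was not tested.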

How the results depend on the processing

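The falls of Foxa1, Spdef, Sox9 and Elf3 in 6419c5 and of Elf3 in 6694c2, each over both clones, passed under every alternative that kept the gene. Calls over all genes shift with the setting too, so counts of factors alone are not a result about the factors. Over the alternatives, calls over all genes ran from 1961 to 4824 in 6694c2 (2744 in the main fit). They ran from 573 to 1490 in 6419c5 (990) and from 752 to 1408 for the difference between lines (1169). By clone they ran from 1811 to 6003 in 6694c2 clone A (2913) and from 1147 to 2916 in its clone B (1949). Counts of factors called under alternatives follow. With a mean of at least 5 TPM, which leaves out Foxa1 and Spdef, there were 3 in 6419c5, 3 over both lines, 1 for the difference between lines and 2 in 6419c5 clone A. Median-of-ratios scaling gave 4 in 6694c2 and 6 for the difference, quantile normalization 4 in 6694c2, and removal of the 20 most abundant genes 4 in 6694c2, 5 for the difference and 1 in 6694c2 clone B. Scaling on Krt8 and Krt18, chosen after seeing the data, gave 1 in 6694c2, 1 in its clone B, 2 in its clone A and 1 between its clones, and 4 in 6419c5 clone B, 3 in clone A and 2 between its clones; it reversed Foxa2 (0.075), Gata6 (0.056) and Gata4 (0.038) in 6694c2 clone A. The macrophage index as a covariate gave 3 in clone A of each line and 2 between the clones of each. Over all genes it called 1811 against 2913 in 6694c2 clone A, and 1359 against 3534 between the 6419c5 clones. In 6694c2 clone B 1 factor was called with no filter, without the 3 libraries that stood apart, with only the line's 9 libraries, with robust eBayes without trend and with the replicate block. In 6419c5 clone A there were 2 with a pseudocount of 0.1, 2 with only the line's libraries, 3 with robust eBayes without trend and 3 with the replicate block, and between the 6694c2 clones 2 with only the line's libraries. The replicate block otherwise gave 5 in 6419c5, 2 in 6694c2, 5 over both lines and 2 for the difference. Leaving out 1 library at a time gave 2 to 5 in 6419c5 clone A, 2 to 6 in 6694c2 clone A, 1 to 2 in 6694c2 clone B and 2 to 5 between the 6694c2 clones. Median-of-ratios, quantile and Krt8 and Krt18 scaling moved the median of all genes in 6694c2 by -0.18, -0.19 and 0.22. Depth is unknown, so the precision of low values such as those of Foxa1 and Spdef cannot be given.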

Other observations

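Transcripts that overlap or neighbour the factors were read from the same table. The antisense transcript 1010001N08Rik, whose exons overlap those of Gata6 on the opposite strand, was higher in the knockout clones over both lines (0.63, SE 0.13, limma adjusted p = 0.00423). It had 14.7, 11.0 and 12.1 TPM in 6694c2 clone B and 9.21, 5.42 and 5.85 TPM in clone A, against 3.89, 5.59 and 6.93 TPM in WT. In 6419c5 it had 20.001, 22.4 and 17.1 TPM in clone B and 14.4, 17.0 and 20.5 TPM in clone A, against 12.3, 14.6 and 9.46 TPM in WT. Clone B lay above WT in both lines, as Gata6 did. Whether the counting used strand is not given, so reads of the pair cannot be told apart.

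Plut, an antisense transcript whose gene overlaps the Pdx1 gene but shares no exon with it, had 10.4, 9.65 and 9.17 TPM in 6694c2 clone B and 5.40, 5.88 and 6.12 TPM in clone A, against 7.18, 5.96 and 6.94 TPM in WT. It was higher in clone B than in clone A there (0.66, limma adjusted p = 0.0101), as Pdx1 was. In 6419c5 Plut had 16.0, 21.9 and 15.5 TPM in clone B and 11.7, 14.1 and 14.5 TPM in clone A, against 12.3, 16.3 and 13.1 TPM in WT, and the clones did not pass a test (0.37, limma adjusted p = 0.0673).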
